A study of Mus musculus with 10 samples.

Results

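The 5 genes described here encode the main histone H3 lysine 36 (H3K36) methyltransferases of the mouse: Nsd1, its paralogs Nsd2 (older name Whsc1) and Nsd3 (older name Whsc1l1), Setd2 and Ash1l. The rule took them by gene name, without a threshold on any value, from 2 tables of expression in somatosensory cortex, one of 29610 rows and one of 54532 rows. Each gene had 1 row in each table. At 2.5 months, 3 of the 5 rows carried a second gene, as Nsd1 with Prelid1, Nsd3 with Plpp5 (listed under its older name Ppapdc1b) and Setd2 with Kif9, whereas Nsd2 and Ash1l had rows of their own. In the 3-month table all 5 had rows of their own. The question for the other 4 genes is whether their RNA was higher where Nsd1 was deleted.

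The Nex_cKO group held 3 libraries labelled Nsd1Nex-cKO at 2.5 months, in which Nsd1 is deleted by Cre under control of Neurod6 (Nex), active in postmitotic excitatory neurons. Its controls, Nex_Ctrl, were 2 libraries labelled Nsd1fl/+ (replicates 1 and 2) and 1 labelled Nsd1fl/fl (replicate 3), also at 2.5 months. The Camk2a_cKO group held 2 libraries labelled Nsd1Camk2a-cKO at 3 months, in which Cre from a Camk2a promoter acts later, in mature forebrain excitatory neurons. Its controls, Camk2a_Ctrl, were 2 libraries labelled Nsd1fl/+ at 3 months. The labels do not say whether controls carried Cre, which exons are flanked by loxP sites, or whether each library came from a separate mouse, so p-values measure the spread between these libraries, which may be technical. Every control carries at least 1 floxed Nsd1 allele by its label, and glia, vessels and interneurons of the cortex lie outside the reach of both drivers.

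Methyl groups on H3K36 mark the bodies of active genes and much of the intergenic space of euchromatin. NSD1, NSD2 and NSD3 place mono- and dimethylation, ASH1L places dimethylation at developmental genes, and SETD2 travels with elongating RNA polymerase II and places nearly all trimethylation. In the brain, dimethylated H3K36 recruits DNMT3A, the DNA methyltransferase that builds neuronal DNA methylation, and loss of 1 copy of human NSD1 causes Sotos syndrome, an overgrowth disorder with intellectual disability.

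All 5 enzymes share the SET domain, the fold that binds the methyl donor S-adenosylmethionine and the lysine. The sequences below show how alike the genes are at the heart of that fold, and so how well reads of one can be kept apart from reads of another. Each is 99 bases of the coding strand around the conserved motif of the SET domain that helps bind the methyl donor, read from the longest coding transcript of each gene in GENCODE M21 (GRCm38, plus strand), and capitals mark the 27 bases of the motif. The Nsd1 stretch lies in exon 20 of 23 (chr13:55302845-55302943), that of Nsd2 in exon 18 of 21 (chr5:33891512-33891610) and that of Nsd3 in exon 20 of 23 (chr8:25709069-25709167). The Setd2 stretch is spliced from exons 7 and 8 of 21 (chr9:110562937-110564591), and that of Ash1l from exons 11 and 12 of 27 (chr3:89043564-89052007).
Nsd1: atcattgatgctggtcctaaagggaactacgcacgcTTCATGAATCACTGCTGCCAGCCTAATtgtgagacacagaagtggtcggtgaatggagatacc
Nsd2: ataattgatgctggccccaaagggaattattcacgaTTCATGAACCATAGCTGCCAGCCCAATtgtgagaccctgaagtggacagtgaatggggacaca
Nsd3: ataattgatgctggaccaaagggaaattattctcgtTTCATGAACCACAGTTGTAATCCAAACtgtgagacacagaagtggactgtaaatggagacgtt
Setd2: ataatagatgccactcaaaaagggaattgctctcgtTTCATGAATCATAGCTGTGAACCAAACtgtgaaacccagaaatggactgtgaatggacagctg
Ash1l: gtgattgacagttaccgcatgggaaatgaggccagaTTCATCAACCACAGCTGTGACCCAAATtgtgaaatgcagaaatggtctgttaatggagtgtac

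Over these 99 bases Nsd1 and Nsd2 were the closest pair, with 81.8% of bases identical. Nsd2 and Nsd3 shared 78.8%, Nsd3 and Setd2 76.8%, and Nsd1 and Nsd3 74.7%. Ash1l was the most distant, with 63.6% to 66.7% identity to the other 4. The longest stretch shared without a mismatch between these longest coding transcripts of any 2 of the 5 genes was 23 bases, between Nsd1 and Nsd2. A longer exact match within these transcripts therefore belongs to 1 of the genes only. Other transcripts of the genes were not compared.

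The tables give FPKM, a level scaled to gene length and to a fragment number for each library. Changes are differences of log2(FPKM + 1) from limma fitted across the whole table, and a gene passed at a Benjamini-Hochberg adjusted p under 0.05 over all rows tested, which numbered 12528 for Nex and 12919 for Camk2a. All 5 members were above the minimum of FPKM 1 in both tables. Because gene models and scaling differ from one table to the other, levels are compared within a table only. The Camk2a libraries held 16901717 to 20074933 recovered reads each, whereas the depth behind the Nex values is not known. One Nex library, Nex_cKO replicate 3, went against the others: it had Ddx3y, a Y-linked gene, at 16.2 FPKM and Xist at 0.0035 FPKM, against Ddx3y at 0 and Xist at 33.6 to 46.5 FPKM in the other Nex libraries, and unnamed rows held 41.55% of its summed FPKM, against 2.334% to 19.41% in the others. Over the 4 Camk2a libraries Ddx3y ranged from 11.0 to 12.4 FPKM and Xist from 0 to 0.00939 FPKM. The excitatory neuron markers were present in all libraries of both models, with sums over 6 genes of 1260 to 1390 FPKM in Nex_cKO and 1420 to 1510 FPKM in Nex_Ctrl, and of 902 to 995 FPKM in Camk2a_cKO and 896 to 971 FPKM in Camk2a_Ctrl. Of these 6 markers of the cells in which Cre acts, 3 passed in the Nex model, in both directions. Neurod6 (log2 change -0.80, adjusted limma p 0.00718) and Tbr1 (-0.46, adjusted limma p 0.00333) were lower in Nex_cKO and Neurod2 (0.35, adjusted limma p 0.0354) was higher, while 0 of the 6 passed in the Camk2a model. Neurod6 is also the locus that gives the Nex driver its name. As the labels do not say whether controls carried Cre, driver and Nsd1 deletion cannot be told apart for Neurod6.

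None of the 5 member rows passed in either model. In the Nex model 8.53% of all rows passed (4.47% higher and 4.06% lower in Nex_cKO), so 0 of 5 lies near the background. Those were 560 higher and 509 lower rows, which became 594 higher and 356 lower when libraries were rescaled by their median ratio. In the Camk2a model 0 of 12919 rows passed, 0%, and the smallest adjusted p of any row was 0.0632. With limma's voom on the recovered reads 1 Camk2a row passed, which was not a member. At an unadjusted limma p under 0.05 stood 899 Camk2a rows, or 6.96%, with Nsd1 the 1 member among them. The corresponding Nex share was 23.5%, and again the Nsd1 row was the 1 member among them.

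**Figure D1:**
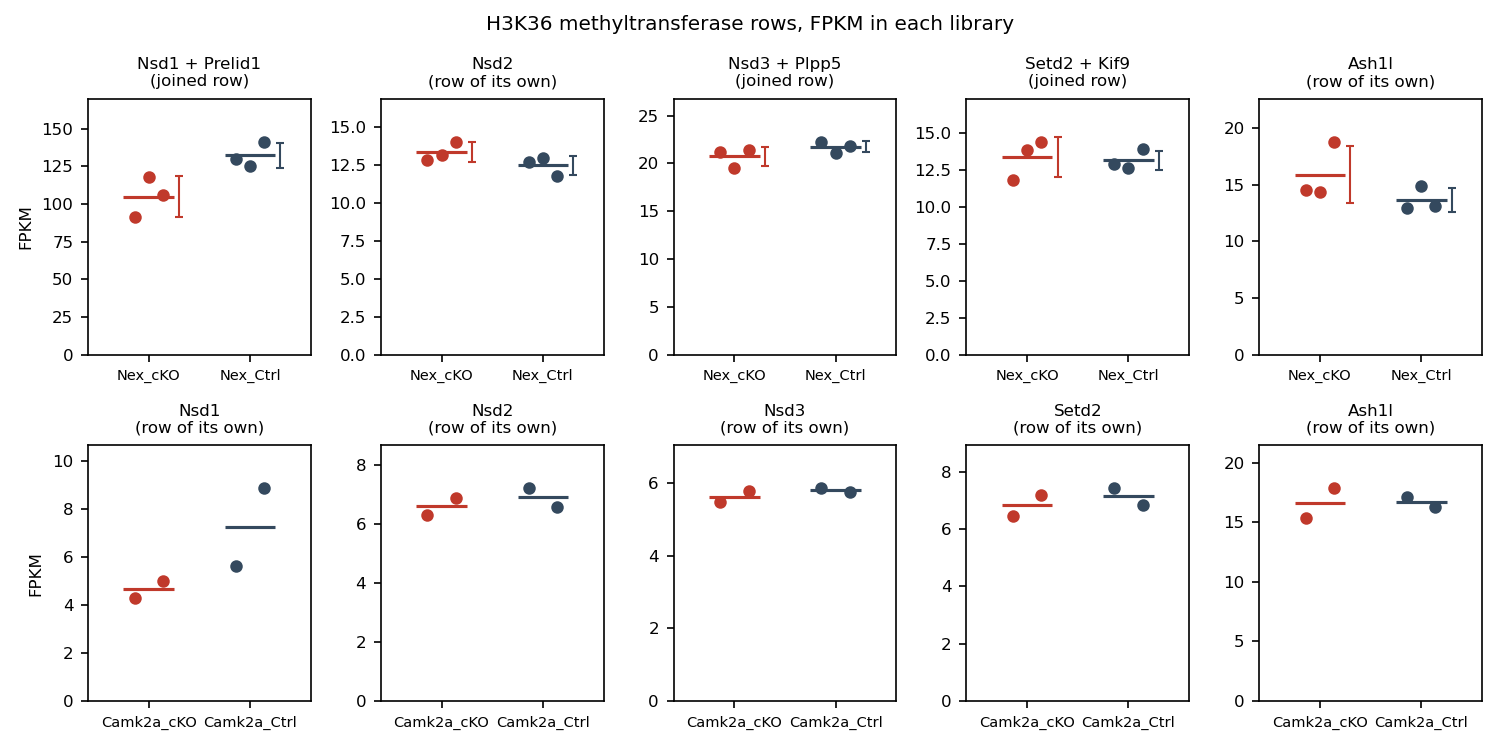
FPKM of the 5 member rows in each library (points), with group means (horizontal lines) and, for the Nex groups, SD (bars at the side, n = 3); the Nex model is above and the Camk2a model (n = 2) below, each panel with its own axis from 0. The cKO and control points are apart for the Nsd1 rows of both models and overlap in the other 8 panels.

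Nsd1 itself was measured first as a check of the labels. In the Nex model it can be read only together with Prelid1, the neighbouring gene for a mitochondrial lipid transfer protein. Nsd1 (chr13:55209782-55318325) ends 2174 bases before Prelid1 starts (chr13:55320500-55325272), on the same strand. Their joined row had 90.98, 118.1 and 105.6 FPKM in Nex_cKO, against 129.9, 125.1 and 141.4 FPKM in Nex_Ctrl. Each Nex_cKO library lay below each Nex_Ctrl library, as did 18.9% of all rows tested. The joined row averaged 104.9 ± 13.57 FPKM in Nex_cKO and 132.1 ± 8.364 FPKM in Nex_Ctrl (SD, n = 3 each). The log2 change was -0.34, with a 95% interval of -0.57 to -0.10 and an adjusted limma p of 0.0863, so it did not pass. Without Nex_cKO replicate 2, the cKO library with the highest value, the change was -0.43 with an adjusted limma p of 0.0301. Without Nex_cKO replicate 1, the lowest, it was -0.24, and under quantile normalization -0.22 with an adjusted limma p of 0.244. Over all 14 alternatives the adjusted p ran from 0.0301 to 0.273.

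Nsd1 had a row of its own in the Camk2a table, with 4.309 and 4.987 FPKM in Camk2a_cKO, against 5.605 and 8.873 FPKM in Camk2a_Ctrl. Both Camk2a_cKO libraries lay below both controls, as did 21.1% of all rows tested, and the 2 controls differed from each other by more than Camk2a_Ctrl replicate 1 differed from either Camk2a_cKO library. Recovered reads were 1341 and 1466 in Camk2a_cKO and 1686 and 3067 in Camk2a_Ctrl. The 95% Poisson intervals, which cover counting error only, were 4.081 to 4.546 and 4.735 to 5.249 FPKM in Camk2a_cKO, and 5.341 to 5.879 and 8.562 to 9.193 FPKM in Camk2a_Ctrl, and none of the 4 overlapped another. The log2 change was -0.52 (95% interval -1.003 to -0.034, adjusted limma p 0.685) and did not pass. It depended on the control taken: -0.23 without Camk2a_Ctrl replicate 2 and -0.81 without Camk2a_Ctrl replicate 1. Over the 13 alternatives the adjusted p ran from 0.405 to 1.0. Prelid1 in the same libraries had 32.52 and 32.99 FPKM in Camk2a_cKO and 34.75 and 35.27 FPKM in Camk2a_Ctrl, a log2 change of -0.09 (adjusted limma p 0.883). Nsd1 therefore made up 11.7% and 13.1% of the summed FPKM of the pair in Camk2a_cKO, and 13.9% and 20.1% in Camk2a_Ctrl. These shares depend on the deposited lengths, 17483 bases for Nsd1 and 2726 bases for Prelid1. Recovered reads of Prelid1 were 1578 and 1512 in Camk2a_cKO and 1630 and 1901 in Camk2a_Ctrl. That was more than Nsd1 in both Camk2a_cKO libraries and fewer in both controls. How much of the joined Nex row belongs to Nsd1 cannot be told apart from Prelid1 in that table.

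A gene-wide level counts reads of all exons, deleted or not, and of all cells, including those in which Cre is not active. It does not measure the deletion. In bulk tissue, fewer cells of a type and less RNA per cell cannot be told apart.

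**Figure D2:**
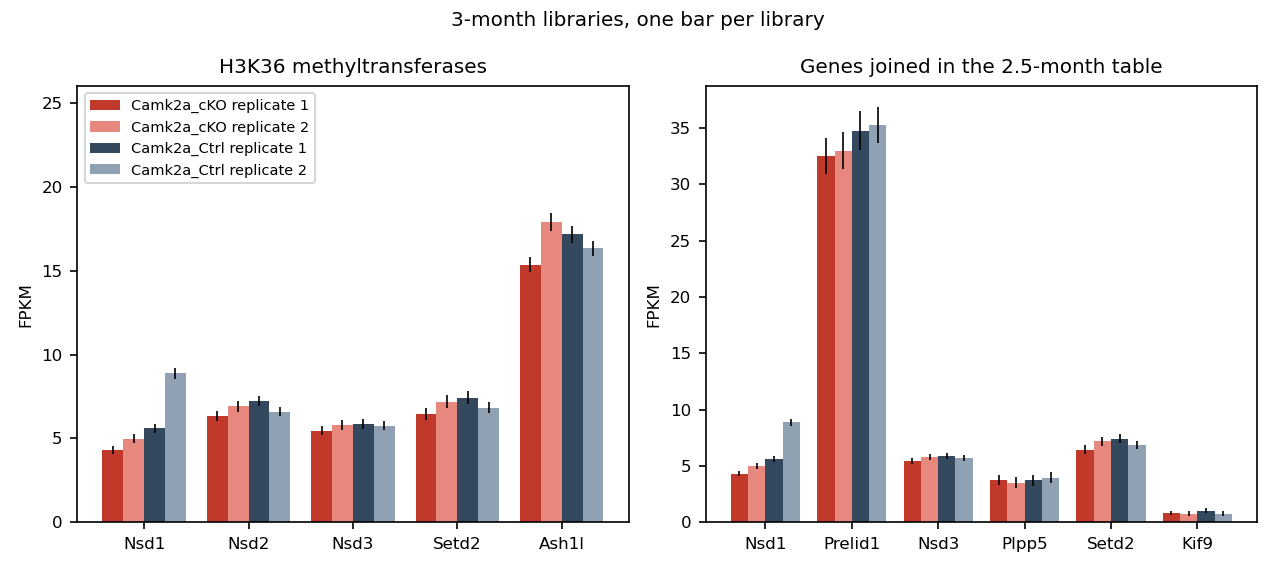
FPKM in each of the 4 Camk2a libraries (one bar each, Camk2a_cKO left of Camk2a_Ctrl) for the 5 methyltransferases (left) and for the 3 gene pairs that the 2.5-month table joins (right), with 95% Poisson intervals of the recovered reads as lines. Nsd1 is highest in Camk2a_Ctrl replicate 2, at 8.873 FPKM, and Ash1l is above the other 4 enzymes in all libraries. Prelid1, whose deposited length is shorter, is far above its neighbour Nsd1 in FPKM.

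Of the NSD paralogs, Nsd2 (chr5:33820725-33897975), the dimethyltransferase whose loss of 1 copy contributes to Wolf-Hirschhorn syndrome in humans, was read alone in both tables. It had 12.78, 13.16 and 14.02 FPKM in Nex_cKO, against 12.69, 12.94 and 11.74 FPKM in Nex_Ctrl. The groups overlapped, with the highest value in Nex_cKO replicate 3. The means were 13.32 ± 0.635 FPKM in Nex_cKO and 12.46 ± 0.630 FPKM in Nex_Ctrl (SD, n = 3 each), and the log2 change of 0.09 (SE 0.08, adjusted limma p 0.527) did not pass. Its 95% interval, -0.08 to 0.26, spans 0.943 to 1.2 times the control level on the FPKM + 1 scale. All ratios below that are taken from intervals are on this scale. In the Camk2a model Nsd2 had 6.332 and 6.906 FPKM in Camk2a_cKO, against 7.233 and 6.604 FPKM in Camk2a_Ctrl. The groups overlapped here too, and the log2 change was -0.06 (95% interval -0.32 to 0.20, adjusted limma p 0.951), or 0.804 to 1.15 times the control.

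Nsd3 (chr8:25601601-25719667), the third NSD methyltransferase, shares its Nex row with Plpp5, a lipid phosphatase gene that starts 369 bases downstream on the same strand. The joined row had 21.2, 19.57 and 21.43 FPKM in Nex_cKO, against 22.3, 21.14 and 21.84 FPKM in Nex_Ctrl. The groups overlapped and the log2 change was -0.07 (95% interval -0.23 to 0.09, adjusted limma p 0.61). Alone in the Camk2a table, Nsd3 had 5.474 and 5.792 FPKM in Camk2a_cKO, against 5.871 and 5.752 FPKM in Camk2a_Ctrl. Its log2 change was -0.04 (95% interval -0.28 to 0.21, adjusted limma p 0.965), or 0.821 to 1.15 times the control. As a share of recovered reads it varied least of the 5, with the highest library lying 1.82% above the lowest. It had 95.2 and 94.9 RPM (reads in 1000000 recovered reads) in Camk2a_cKO and 95.2 and 93.5 RPM in Camk2a_Ctrl. That gap is within counting error, as the 95% Poisson interval of Camk2a_cKO replicate 1 alone was 5.21 to 5.748 FPKM. Plpp5 in the same libraries had 3.742 and 3.507 FPKM in Camk2a_cKO and 3.723 and 3.986 FPKM in Camk2a_Ctrl. Nsd3 thus held 59.4% and 62.3% of the summed FPKM of the pair in Camk2a_cKO and 61.2% and 59.1% in Camk2a_Ctrl.

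Setd2 (chr9:110532597-110618633), the enzyme of H3K36 trimethylation, shares its Nex row with the kinesin gene Kif9, which ends 7417 bases before it on the same strand. The joined row had 11.83, 13.85 and 14.41 FPKM in Nex_cKO, against 12.9, 12.63 and 13.87 FPKM in Nex_Ctrl. The lowest and the highest of the 6 values were both in Nex_cKO. The means of 13.36 ± 1.356 FPKM in Nex_cKO and 13.13 ± 0.650 FPKM in Nex_Ctrl (SD, n = 3 each) gave a log2 change of 0.02 (95% interval -0.19 to 0.23, adjusted limma p 0.923). In the Camk2a model Setd2 alone had 6.462 and 7.184 FPKM in Camk2a_cKO, against 7.426 and 6.839 FPKM in Camk2a_Ctrl, and the groups overlapped. The log2 change was -0.06 (95% interval -0.32 to 0.21, adjusted limma p 0.951). Kif9 was low there, at 0.8104 and 0.7611 FPKM in Camk2a_cKO and 1.041 and 0.7649 FPKM in Camk2a_Ctrl. Setd2 thus held 88.9% and 90.4% of the summed FPKM of the pair in Camk2a_cKO and 87.7% and 89.9% in Camk2a_Ctrl.

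Ash1l (chr3:88950622-89079375), the mammalian counterpart of the fly trithorax group gene ash1 and a gene in which human variants are linked to autism, had a row of its own in both tables. It had 14.51, 14.38 and 18.83 FPKM in Nex_cKO, against 12.94, 14.91 and 13.17 FPKM in Nex_Ctrl. Of the 3 Nex_cKO libraries, replicate 3 was above all controls and the other two fell within the range of the controls. Means were 15.9 ± 2.536 FPKM in Nex_cKO and 13.67 ± 1.077 FPKM in Nex_Ctrl (SD, n = 3 each). The log2 change was 0.20 (SE 0.11, 95% interval -0.06 to 0.45, adjusted limma p 0.337), or 0.96 to 1.37 times the control, and without Nex_cKO replicate 3 it was 0.08 (adjusted limma p 0.631, in a range of 0.209 to 0.631 over 14 alternatives). Ash1l in the later model had 15.36 and 17.88 FPKM in Camk2a_cKO, against 17.16 and 16.32 FPKM in Camk2a_Ctrl. Both the lowest and the highest value were in Camk2a_cKO, and the log2 change was -0.01 (95% interval -0.28 to 0.25, adjusted limma p 0.992).

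Nex_cKO replicate 3, the library that stood apart, was the highest of the 6 for 3 of the 5 member rows (Nsd2, Setd2 with Kif9, and Ash1l), where 24.2% of all rows tested had their highest value. Leaving it out lowered the Ash1l change as given above. Camk2a_cKO replicate 1 was the lowest of the 4 for all 5 members, where 31.2% of all rows tested had their lowest value. The fragment number by which its FPKM had been divided was 105.3% of its recovered reads, against 99.23% in Camk2a_cKO replicate 2 and 98.19% and 98.48% in Camk2a_Ctrl. On the RPM scale, which does not use that number, Nsd2 had 112 and 115 RPM in Camk2a_cKO and 119 and 109 RPM in Camk2a_Ctrl. Setd2 had 73.2 and 76.7 RPM in Camk2a_cKO and 78.4 and 72.4 RPM in Camk2a_Ctrl, and Ash1l had 240 and 263 RPM in Camk2a_cKO and 250 and 239 RPM in Camk2a_Ctrl. On that scale the ratio of the Camk2a_cKO mean to the Camk2a_Ctrl mean was 0.996 for Nsd2, 1.01 for Nsd3, 0.994 for Setd2 and 1.03 for Ash1l, against 0.665 for Nsd1. Which of FPKM and RPM is nearer to the RNA levels was not tested.

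**Figure D3:**
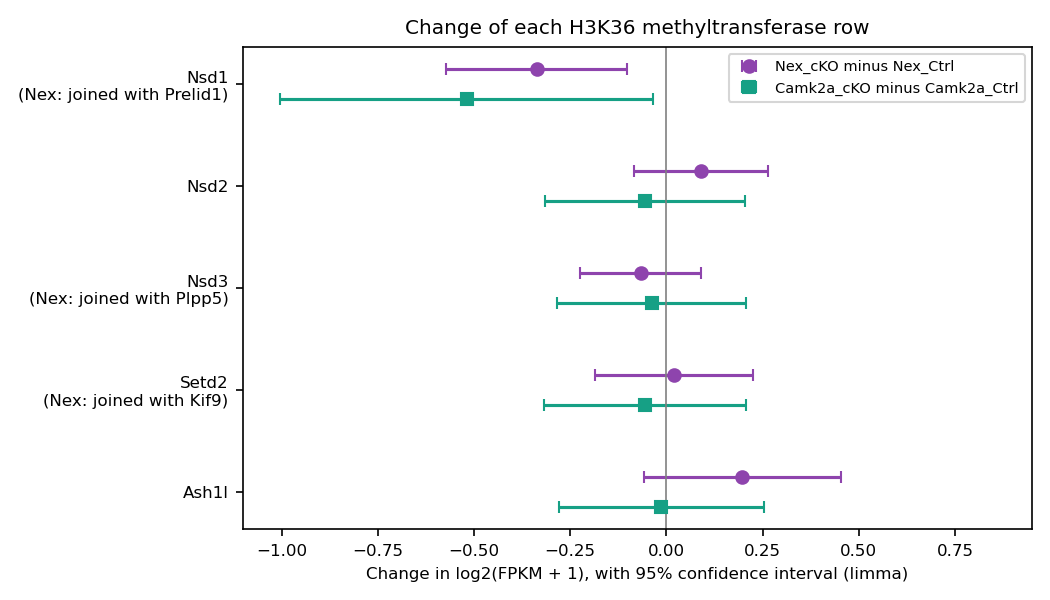
Change in log2(FPKM + 1), cKO minus control, of each member row in the Nex model (circles) and the Camk2a model (squares), with the 95% interval of the limma fit. The intervals of Nsd2, Nsd3, Setd2 and Ash1l include 0 in both models, and those of the Nsd1 rows lie below 0 without passing after adjustment over all rows.

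The summed level of the other 4 enzymes overlapped between cKO and control libraries in both models. Their FPKM summed to 60.31, 60.95 and 68.68 in Nex_cKO, against 60.82, 61.61 and 60.62 in Nex_Ctrl, where the sum holds Plpp5 and Kif9 as well. The difference of the means, 2.30 FPKM higher in Nex_cKO (63.32 ± 4.659 in Nex_cKO and 61.02 ± 0.528 in Nex_Ctrl, SD, n = 3 each), came from Nex_cKO replicate 3 and was -0.383 FPKM without it. The sums were 33.63 and 37.76 FPKM in Camk2a_cKO, against 37.69 and 35.52 FPKM in Camk2a_Ctrl, so the groups overlapped and the mean was 0.975 times that of the controls. Nsd1 made up 11.4% and 11.7% of the FPKM of the 5 enzymes in Camk2a_cKO, and 12.9% and 20% in Camk2a_Ctrl.

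These intervals set the size of change that the libraries could have missed. The bounds are ratios of FPKM + 1, and the added 1 draws them towards 1, so bounds on FPKM itself would be wider. In the Camk2a model, where each gene had its own row, the upper bounds for the other 4 genes ran from 1.15 to 1.19 times the control. In the Nex model the upper bounds were 1.2 times for Nsd2 and 1.37 times for Ash1l. The Nex bounds of the joined rows, 1.07 times with Nsd3 and 1.17 times with Setd2, are those of the gene pairs and do not bound Nsd3 or Setd2 alone. The median half-width of the 95% interval over all rows was 0.23 (Nex) and 0.30 (Camk2a) on the log2 scale. A p above the threshold therefore leaves changes within those intervals undecided, in either direction.

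Only Nsd2 and Ash1l could be compared between the models gene for gene. The log2 change of Nsd2 in the Nex model minus that in the Camk2a model was 0.15 (SE 0.12, 95% interval -0.12 to 0.42, adjusted limma p 0.639), and for Ash1l it was 0.21 (SE 0.17, 95% interval -0.16 to 0.58, adjusted limma p 0.626). Neither difference passed, whereas 0.529% of 10405 genes did. Driver, age and table differ together between the models and cannot be told apart. Sex, as read from Xist and Ddx3y, differed as well. All Camk2a libraries had Ddx3y, whereas among the Nex libraries Nex_cKO replicate 3 alone did. The part of sex in these changes was not tested.

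Within the Camk2a table, where lengths are deposited and each gene stands alone, the order of levels per length was led by Ash1l. Ash1l had 2.31 to 2.49 times the FPKM of Setd2 in 4 of 4 libraries. Setd2 came second, except in Camk2a_Ctrl replicate 2, where Nsd1 did. Setd2 was above Nsd2 in 4 of 4 libraries by 1.02 to 1.04 times, a gap smaller than the difference between libraries of 1 group. The order depends on the deposited lengths. These were 16803 bases for Nsd2 and 10754 bases for Setd2, against 6919 and 8350 bases in the transcripts used for the sequences above. On the RPM scale, without length, Nsd2 averaged 114 RPM in both groups. Setd2 averaged 75.0 RPM in Camk2a_cKO and 75.4 RPM in Camk2a_Ctrl, the lowest of the 5 in each. Nsd2 was above Nsd3 in 4 of 4 libraries, by 1.15 to 1.23 times. Nsd1 had the lowest FPKM of the 5 in 3 of 4 libraries, including Camk2a_Ctrl replicate 1, where the counting interval of Nsd1 (up to 5.879 FPKM) reached the level of Nsd3 (5.871 FPKM). In the Nex table the 2 genes with rows of their own stood in the same order, Ash1l being 1.02 to 1.34 times Nsd2 in 6 of 6 libraries.

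Likeness was read among 10404 other genes with a row of their own tested in both tables. Those whose levels moved most like Ash1l were Cpeb4, an RNA-binding regulator of translation, Mycbp2, an E3 ubiquitin ligase of axons, and Kif1b, an axonal motor protein. Likeness was the root mean square difference of log2(FPKM + 1) over the 10 libraries after each table was centred on its own mean: 0.034 for Cpeb4, 0.035 for Mycbp2 and 0.037 for Kif1b, against a median of 0.194 over all genes. For Nsd2 they were Pikfyve, a lipid kinase of endosomes (0.023), Ica1l (0.026) and Trak2, an adaptor for transport of mitochondria (0.027), against a median of 0.146. As these genes were picked for the smallest differences, they lie below the median by construction. A gene at a constant level in each table would differ by 0.138 from Ash1l and by 0.067 from Nsd2. The libraries share scaling and tissue composition, and the measure is a description.

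The other genes of the H3K36 pathway were read from 6 lists, and 0 genes of any list passed in either model, where 8.53% of all Nex rows and 0% of all Camk2a rows did. At an unadjusted limma p under 0.05 stood 1 demethylase and 2 binding proteins in the Nex model and 0 genes of the lists in the Camk2a model. The median log2 change of all rows tested was -0.04 for Nex and -0.01 for Camk2a, against which the list medians are given. Not tested, for low values, were the meiotic methyltransferase Prdm9, Kdm4d, Dnmt3b and Phf19.

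Of other SET domain enzymes reported on H3K36, 4 of 5 were tested, with a median log2 change of -0.01 (Nex) and -0.10 (Camk2a). Smyd2, a lysine methyltransferase that also acts on p53, had 28.81, 31.25 and 25.23 FPKM in Nex_cKO, against 34.37, 26.65 and 30.09 FPKM in Nex_Ctrl, with overlapping groups. It had 9.304 and 8.231 FPKM in Camk2a_cKO, against 10.16 and 9.624 FPKM in Camk2a_Ctrl, both cKO libraries below both controls. Setmar, a SET domain fused to a transposase in primates, had 2.735, 3.297 and 2.834 FPKM in Nex_cKO, against 3.117, 3.075 and 3.293 FPKM in Nex_Ctrl, again with overlap. It had 2.26 and 1.954 FPKM in Camk2a_cKO, against 2.437 and 2.522 FPKM in Camk2a_Ctrl, and its log2 change of -0.16 did not pass. Groups thus did not overlap for 2 of the 4 genes in the Camk2a model, where 37.3% of all rows did not, and for 0 of the 4 in the Nex model, where 30.4% did not.

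The demethylases, which take methyl groups off H3K36, had 7 of 8 genes tested, 6 of the 7 with a negative change in the Nex model, where 7457 of all 12528 rows were negative. In the Camk2a model 4 of the 7 were negative, as were 6777 of all 12919 rows. Their median log2 change was -0.10 (Nex) and -0.05 (Camk2a). Kdm4b, which removes trimethyl marks from H3K9 and H3K36, had 11.97, 13.18 and 11.79 FPKM in Nex_cKO, against 13.03, 15.43 and 15.39 FPKM in Nex_Ctrl. One Nex_cKO value lay within the control range, and the log2 change of -0.23 had an adjusted limma p of 0.168. Kdm4b had 12.87 and 14.02 FPKM in Camk2a_cKO, against 11.59 and 13.63 FPKM in Camk2a_Ctrl. Kdm2b, a demethylase of dimethylated H3K36 that also belongs to a Polycomb complex, had 3.932, 3.372 and 3.202 FPKM in Nex_cKO, against 3.607, 3.76 and 4.282 FPKM in Nex_Ctrl. It had 1.675 and 4.033 FPKM in Camk2a_cKO, against 1.487 and 2.001 FPKM in Camk2a_Ctrl, so that 1 library, Camk2a_cKO replicate 2, stood above the other 3.

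Of the proteins that bind methylated H3K36, 14 of 16 were tested, with a median log2 change of -0.04 (Nex) and 0.02 (Camk2a). Groups did not overlap for 5 of the 14 in the Nex model, where 30.4% of all rows did not, and for 3 of the 14 in the Camk2a model, where 37.3% did not. Phf1, a Polycomb-associated protein with a Tudor domain, had 14.64, 13.79 and 11.6 FPKM in Nex_cKO, against 16.09, 16.14 and 15.86 FPKM in Nex_Ctrl. All Nex_cKO values were below all Nex_Ctrl values, and the log2 change of -0.25 had an adjusted limma p of 0.136. Phf1 had 8.696 and 10.55 FPKM in Camk2a_cKO, against 7.083 and 9.558 FPKM in Camk2a_Ctrl. The log2 change of Phf1 in the Nex model minus that in the Camk2a model was -0.45 (95% interval -0.85 to -0.05) and did not pass, with an adjusted limma p of 0.335. Brpf3, a scaffold of a histone acetyltransferase complex with a PWWP domain, had 6.95, 5.531 and 6.588 FPKM in Nex_cKO, against 7.748, 7.553 and 7.998 FPKM in Nex_Ctrl, also without overlap (log2 change -0.26, adjusted limma p 0.149). Brpf3 had 4.245 and 4.206 FPKM in Camk2a_cKO, against 4.486 and 4.647 FPKM in Camk2a_Ctrl. Dnmt3a, the methyltransferase drawn to dimethylated H3K36, shared its Nex row with Dtnb and averaged 24.94 FPKM there in Nex_cKO and 26.34 FPKM in Nex_Ctrl; alone, it averaged 5.024 FPKM in Camk2a_cKO and 4.413 FPKM in Camk2a_Ctrl. Dnmt3a was chosen after its values were seen.

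**Figure D4:**
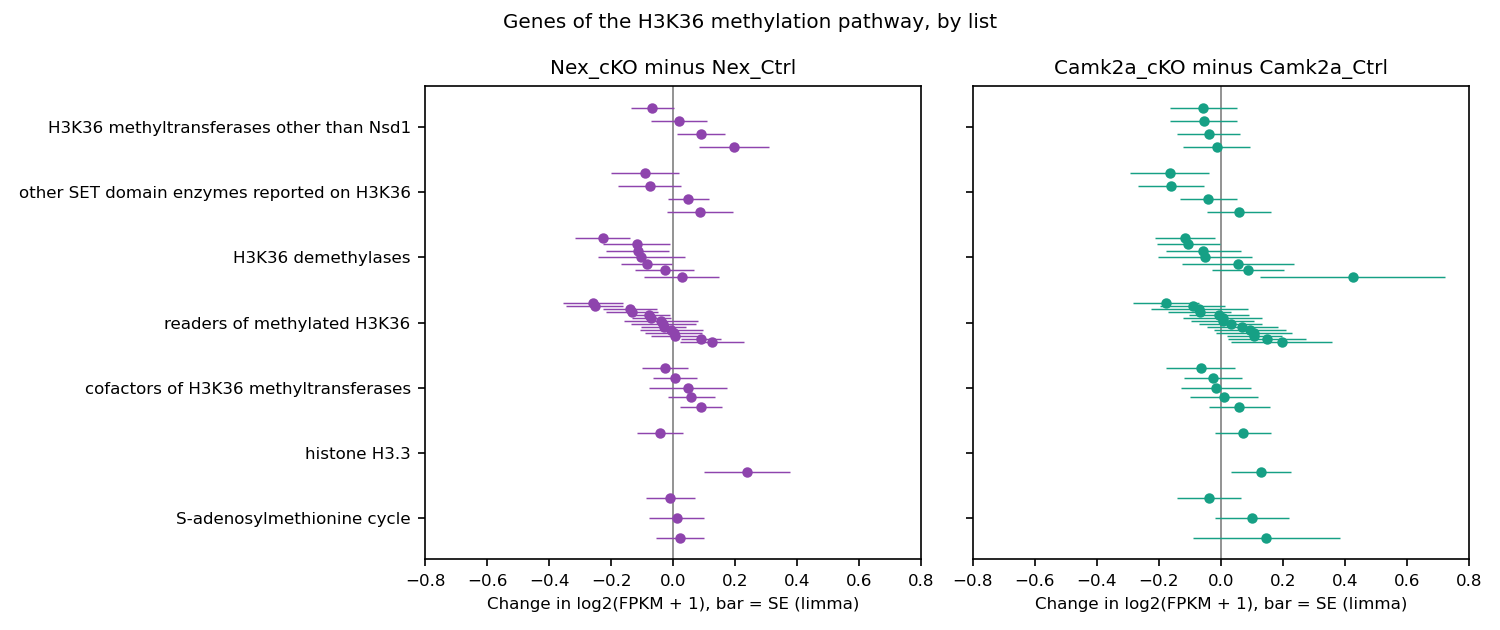
Change in log2(FPKM + 1), cKO minus control, of each tested gene of the pathway lists, with its SE from limma, in the Nex model (left) and the Camk2a model (right); each point is 1 gene, sorted within its list. Points of each list lie on both sides of 0 in at least 1 model, and none passed at an adjusted p under 0.05.

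The cofactors that act beside these enzymes had 5 of 5 genes tested, with median log2 changes of 0.05 (Nex) and -0.01 (Camk2a). Supt6, the elongation factor that helps SETD2 reach chromatin, had 26.32, 26.14 and 26.1 FPKM in Nex_cKO, against 23.49, 26.13 and 24.11 FPKM in Nex_Ctrl, and 26.84 and 29.76 FPKM in Camk2a_cKO, against 26.26 and 27.89 FPKM in Camk2a_Ctrl. Rbbp4, a histone-binding subunit of many chromatin complexes, had 28.11, 24.87 and 24.66 FPKM in Nex_cKO, against 25.58, 24.03 and 24.74 FPKM in Nex_Ctrl. Both genes overlapped between groups in both models.

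The substrate and the methyl donor were read through the H3.3 genes and the S-adenosylmethionine cycle. H3f3b, one of the genes for the replication-independent histone of neurons, had 77.19, 85.38 and 55.92 FPKM in Nex_cKO, against 57.55, 61.11 and 63.45 FPKM in Nex_Ctrl. Nex_cKO replicates 1 and 2 were above all controls and replicate 3 was below them all. The log2 change was 0.24 with an adjusted limma p of 0.348, and without Nex_cKO replicate 3 it was 0.41 with an adjusted limma p of 0.00864, past the threshold; over 14 alternatives the adjusted p ran from 0.00864 to 0.607. H3f3b had 34.2 and 33.62 FPKM in Camk2a_cKO, against 31.23 and 33.23 FPKM in Camk2a_Ctrl. Both H3.3 genes have processed copies elsewhere in the genome, and how their reads were counted is not given, so their levels are uncertain. H3f3a, the other H3.3 gene, had 116.6, 107.7 and 113.2 FPKM in Nex_cKO, against 121.1, 109.5 and 117.3 FPKM in Nex_Ctrl. It had 15.41 and 14.14 FPKM in Camk2a_cKO, against 13.25 and 13.53 FPKM in Camk2a_Ctrl, both Camk2a_cKO libraries above both controls, as were those of H3f3b; such was the case for 16.2% of all rows. Neither gene passed, and the median log2 change of the 2 genes was 0.10 in each model. Of the cycle genes 3 of 3 were tested, with median log2 changes of 0.01 (Nex) and 0.10 (Camk2a). Mat2a, the catalytic subunit that makes S-adenosylmethionine, had 52.97, 55.45 and 50.82 FPKM in Nex_cKO, against 58.56, 52.08 and 49.93 FPKM in Nex_Ctrl. It had 33.69 and 19.4 FPKM in Camk2a_cKO, against 23.75 and 22.31 FPKM in Camk2a_Ctrl, the highest and the lowest of the 4 both being in Camk2a_cKO. Ahcy, which breaks down the product of methylation, had 8.425, 8.571 and 8.026 FPKM in Nex_cKO, against 8.015, 8.154 and 8.418 FPKM in Nex_Ctrl.

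Markers of other cell types moved in both directions between the Nex groups alongside these values. Endothelial markers (5 genes, 2 lower in Nex_cKO) summed to 43.7 to 56.5 FPKM in Nex_cKO and 67.8 to 90.2 FPKM in Nex_Ctrl. The haemoglobin rows (2 rows, both lower in Nex_cKO) summed to 50.0 to 94.5 FPKM in Nex_cKO and 124 to 270 FPKM in Nex_Ctrl. Oligodendrocyte markers (6 genes, 0 passing) summed to 1030 to 1250 FPKM in Nex_cKO and 1340 to 1460 FPKM in Nex_Ctrl. Astrocyte markers (5 genes) summed to 241 to 275 FPKM in Nex_cKO and 220 to 259 FPKM in Nex_Ctrl, with Gfap higher in Nex_cKO (log2 change 0.82, adjusted limma p 0.00605). Gfap alone passed, and of the 5 changes 3 were positive and 2 negative (Aqp4 and Aldh1l1, each -0.07). GABAergic markers (6 genes) summed to 507 to 813 FPKM in Nex_cKO and 707 to 826 FPKM in Nex_Ctrl, with Gad2 higher in Nex_cKO (log2 change 0.63, adjusted limma p 0.00203). Gad2 alone passed, and of the 6 changes 3 were positive and 3 negative. The negative ones were Sst (-0.47, adjusted limma p 0.166), Pvalb (-0.12) and Slc32a1 (-0.07). Microglial markers (6 genes, 0 passing) summed to 110 to 118 FPKM in Nex_cKO and 94.6 to 114 FPKM in Nex_Ctrl. Striatal markers (4 genes, 3 tested, 0 passing) summed to 71.4 to 108 FPKM in Nex_cKO and 72.2 to 73.5 FPKM in Nex_Ctrl, and thalamic markers (3 genes, 0 passing) to 4.48 to 6.7 FPKM in Nex_cKO and 4.04 to 5.93 FPKM in Nex_Ctrl. In the Camk2a model endothelial sums were 40.5 to 42.5 FPKM in Camk2a_cKO and 31.5 to 32.3 FPKM in Camk2a_Ctrl, and haemoglobin sums over 4 genes were 123 to 157 FPKM in Camk2a_cKO and 80.0 to 99.5 FPKM in Camk2a_Ctrl. Striatal sums there were 38.6 to 52.7 FPKM in Camk2a_cKO and 31.8 to 36.3 FPKM in Camk2a_Ctrl, also without overlap. Ppp1r1b made up most of them, with means of 42.05 FPKM in Camk2a_cKO and 30.6 FPKM in Camk2a_Ctrl. Ppp1r1b and Adora2a were higher in both Camk2a_cKO libraries than in both controls. The other striatal genes, Drd1 (means 2.183 and 2.708 FPKM) and Drd2 (0.2497 and 0.3385 FPKM), were lower in both. The sums of GABAergic, astrocyte, oligodendrocyte, microglial and thalamic markers overlapped between the Camk2a groups, and 0 markers of any list passed in that model. No marker of these lists was at 0 in all libraries. The part of these cells in the levels of the H3K36 genes was not tested.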

How the data were processed

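The authors deposited FPKM for RNA of mouse somatosensory cortex in 2 tables, 1 per model. Per the labels' protocols, total RNA was taken with RNAiso Plus and libraries were made with an NEBNext Ultra II kit. The builds mm10 and GRCm38, and the tools STAR, cutadapt, DESeq2 and Cufflinks 2.2.1, come from the submitters' processing notes, which give no role; strand use is not given in the sources used here. Unnamed rows were left out, and of repeated names the row of highest mean was kept. Rows reaching FPKM 1 in a number of libraries equal to the smaller group were tested as log2(FPKM + 1) with limma 3.58.1 (eBayes with intensity trend) in R 4.3.3, checked on simulated data. P-values are two-sided, Benjamini-Hochberg adjusted over all rows of a table. In the 3-month table FPKM times deposited length was a whole multiple of 1 read per library for 100% of values (tolerance 0.1). Groups came from the labels. Alternatives were other pseudocounts, filters, scalings and variance settings, a replicate block, limma voom on recovered reads, and leaving out each library. Named pathway genes were the 2 of smallest p per list, since none passed; the genes of likeness were the 3 closest. The members and lists were chosen with earlier results of these data known.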

Additional observations from a re-analysis of the deposited data

How the results depend on the processing

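No member row passed under any of the alternatives in the Camk2a model (13) or, in the Nex model (14), outside 1: without Nex_cKO replicate 2 the Nsd1 with Prelid1 row passed, so that the count of lower member rows ran from 0 to 1 over the libraries left out, its log2 change from -0.43 to -0.24. Camk2a Nsd1 ran from -0.81 to -0.23 over the libraries left out. Under other scalings or voom these changes turned sign: in the Nex model H3f3a (0.0737) and Mat2a (0.0723) under quantile normalization and Mat2a (0.0268) under the median ratio, and in the Camk2a model Ash1l under quantile normalization (0.0015) and Ash1l (0.044), Nsd3 (0.0123) and Rbbp4 (0.0315) under voom on recovered reads. Leaving out single libraries turned, in the Nex model, Setd2 with Kif9 (-0.033 to 0.0991), Mat2a (-0.0569 to 0.056), Smyd2 (-0.1775 to 0.0001) and Rbbp4 (-0.0005 to 0.0904), and in the Camk2a model Ash1l (-0.1163 to 0.0901), Nsd2 (-0.11 to 0.0018), Setd2 (-0.1232 to 0.0101), Kdm4b (-0.0196 to 0.20), Rbbp4 (-0.0626 to 0.0128), Ahcy (-0.0043 to 0.21), Mat2a (-0.24 to 0.53), Kdm2b (-0.0305 to 0.88) and Supt6 (-0.0115 to 0.13); the cause was not tested. Same-numbered libraries deviated together by correlations of 0.0167, -0.104 and -0.0956 (Nex) and 0.0496 (Camk2a). These values show no pairing by number but cannot exclude one, since with 2 libraries per group both Camk2a numbers must give the same value. With the replicate block the Nsd1 changes stayed at -0.34 (adjusted limma p 0.142, Nex) and -0.52 (0.405, Camk2a), no member passed, and 272 rows of the whole Nex table were lower, against 509 without the block. Over all rows, a filter of FPKM 5 left 197 higher and 347 lower Nex rows, and 1 Camk2a row was higher under that filter, 5 without the intensity trend, 1 with robust moderation and 1 under voom. The median ratio scaling led to 594 higher and 356 lower Nex rows and quantile normalization 523 and 361, against 560 and 509 as deposited. In the Camk2a model the median log2 change over all rows was -0.009 both as deposited and under the median ratio. The 2 libraries per Camk2a group, an unknown Nex depth and 3 joined rows limit the precision for the members.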
